A study of Oryzias latipes with 27 samples.

Results

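The ovary of XX females and the testis of XY males were compared at 30 days post hatch (D30) in medaka, Oryzias latipes. The 6 libraries were chosen by their labels alone, 3 of WT_Fe_Ov and 3 of WT_Ma_Te, out of 27 RNA-seq libraries of the series. WT_Fe_Ov is the ovary of wild-type XX females and WT_Ma_Te the testis of wild-type XY males, and the labels name no treatment of either. The other libraries hold gonads of 10 days post hatch (D10) and 120 days post hatch (D120), and ovaries of XY females in which DMY, the male-determining gene on the Y chromosome, was mutated with TALENs. The strain, the number of fish behind a library and how the D30 gonads were dissected are not given in the sources used here. The labels call the 3 libraries of a group biological replicates, so p-values measure the spread between such samples only.

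In fish as in other vertebrates, the gonad holds germ cells and a supporting soma of the same origin in both sexes. In the ovary, granulosa and theca cells surround growing oocytes, which stay arrested in the first meiotic division while they store RNA, take up yolk and build the egg coat. In the testis, Sertoli cells surround spermatogonia, which divide, pass through meiosis and become sperm with a flagellum. In medaka, DMY acts in the XY soma, and Gsdf, a secreted TGF-beta family factor, lies in the male pathway.

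The 3 WT_Fe_Ov libraries held 14855932 to 15297992 counts and the 3 WT_Ma_Te libraries 15683082 to 17586392 counts of read pairs on genes. At this depth 3 counts equal 0.275 to 0.279 CPM (counts scaled by library total and TMM factor) in WT_Fe_Ov and 0.123 to 0.139 CPM in WT_Ma_Te, and such floors cover counting error only. The ovary RNA was spread over fewer genes. The 12 genes with the most counts took 5.46% to 5.65% of the counts in WT_Fe_Ov libraries and 2.59% to 2.75% in WT_Ma_Te libraries. The most abundant genes that together made up 50% of the counts numbered 1104 to 1145 in WT_Fe_Ov libraries and 2344 to 2440 in WT_Ma_Te libraries. At least 10 counts were found for 16129 to 16320 genes in WT_Fe_Ov libraries and for 20604 to 20858 genes in WT_Ma_Te libraries. A mean of at least 1 FPKM (fragments scaled by exon length and library total) was reached by 12866 genes in WT_Fe_Ov and 17350 in WT_Ma_Te. By the study's sequencing summary, the D30 WT_Ma_Te libraries were read with shorter reads than all other libraries, so at D30 the tissue and the length of the reads cannot be told apart. By the study's mapping summary, a smaller share of reads aligned in D30 WT_Ma_Te libraries than in D30 WT_Fe_Ov libraries. The share that mapped to several places was smaller in WT_Ma_Te as well. Reads that mapped to several places were not counted and strand was not used, so levels of near-identical, overlapping or antisense genes are uncertain.

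The labels were checked against genes of the gonadal soma. The study designed qPCR primers for 4 of the genes that the results turn on, and they are shown as the stretches of these genes that can be measured again. They were not matched to the genome here and are written 5′ to 3′, all in lower case.
foxl2 forward: tgatggccacttaccaaagc
foxl2 reverse: atgagggcgacgtacgagta
gsdf forward: ggtgtcacggacactacagc
gsdf reverse: attgtcccagcccagatctttc
star forward: cagaagggcatcattagagctga
star reverse: gtctttgggatccagccctt
cfap52 forward: gtggtcatgccttttgggac
cfap52 reverse: tgaggctgtgtccgtcaatc

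The foxl2 gene, on chromosome 13 from 31814602 to 31815767 of ASM223467v1, encodes a forkhead transcription factor of granulosa cells. It had 8.8, 8.37 and 9.56 FPKM in WT_Fe_Ov, against 0.585, 1.09 and 1.06 FPKM in WT_Ma_Te, with no testis library near the ovary libraries. Its log2 fold change, WT_Fe_Ov over WT_Ma_Te, was 4.24 with a standard error of 0.23, and the quasi-likelihood test of edgeR gave a Benjamini-Hochberg adjusted p of 1.9e-12. Standard errors were not estimated separately but derived from each log2 fold change and its F statistic. LOC101174651, which RefSeq gives the synonym cyp19a1, encodes the aromatase that makes estrogens. It had 4.74, 8.14 and 5.06 FPKM in WT_Fe_Ov, against 0, 0.0347 and 0.0957 FPKM in WT_Ma_Te, again without overlap, and a log2 fold change of 7.89 (standard error 0.41). With 4 counts in all over the WT_Ma_Te libraries, this fitted value rests in part on the prior count, as does every log2 fold change given here for a gene with few counts in one group. On the male side, gsdf, on chromosome 12 from 10455047 to 10458695, had 61, 90.4 and 74.7 FPKM in WT_Fe_Ov, against 2008, 2244 and 2036 FPKM in WT_Ma_Te. The groups did not overlap, and the log2 fold change was -3.85 with a standard error of 0.11 (edgeR, adjusted p = 1.4e-16). The anti-Müllerian hormone gene amh and sox9, which encodes a transcription factor of Sertoli cells, were also lower in WT_Fe_Ov, with log2 fold changes of -1.67 and -4.67. In all, 2 of the 7 markers tested were higher and 4 lower in WT_Fe_Ov. The genes fshr and rspo1, which the marker list placed on the female side, were not higher in the ovary. The receptor gene of follicle-stimulating hormone, fshr, was lower in WT_Fe_Ov than in WT_Ma_Te (log2 fold change -4.50), and rspo1, a Wnt agonist gene, was not called (-0.63). DMY and dmrt1 themselves were not analysed here. In bulk gonads such as these, fewer cells of a type and less RNA per cell cannot be told apart.

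Of 25311 genes tested, 5615 (22.2%) were called higher and 9002 (35.6%) lower in WT_Fe_Ov than in WT_Ma_Te, 57.7% in all. A call took an adjusted p up to 0.05 in the edgeR test together with a log2 fold change of 1 or more in either direction. These shares are the background for every gene list below on the TMM scale. Every WT_Fe_Ov library lay above every WT_Ma_Te library in 34% of the genes and below it in 45.2%, in TMM-scaled CPM. The balance depended on the scaling. TMM factors, which assume that most genes do not differ, were 0.703 to 0.728 in WT_Fe_Ov and 1.37 to 1.41 in WT_Ma_Te, so a log2 fold change given here is higher than the ratio of the FPKM values printed beside it. With library totals in place of TMM, the scale on which FPKM was made, the median log2 fold change of all genes moved by -0.95, and 2602 genes were called higher and 12873 lower. Of all called genes, 38.4% were higher in WT_Fe_Ov with TMM and 16.8% with library totals. The balance also changed with the size of the difference. At log2 fold changes of 4 or more in size there were 789 genes higher and 2452 lower, and at 8 or more there were 182 higher and 125 lower. No count was found in any WT_Ma_Te library for 13 genes whose mean in WT_Fe_Ov was 100 counts or more, and none in any WT_Fe_Ov library for 28 genes with such a mean in WT_Ma_Te.

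**Figure D1:**
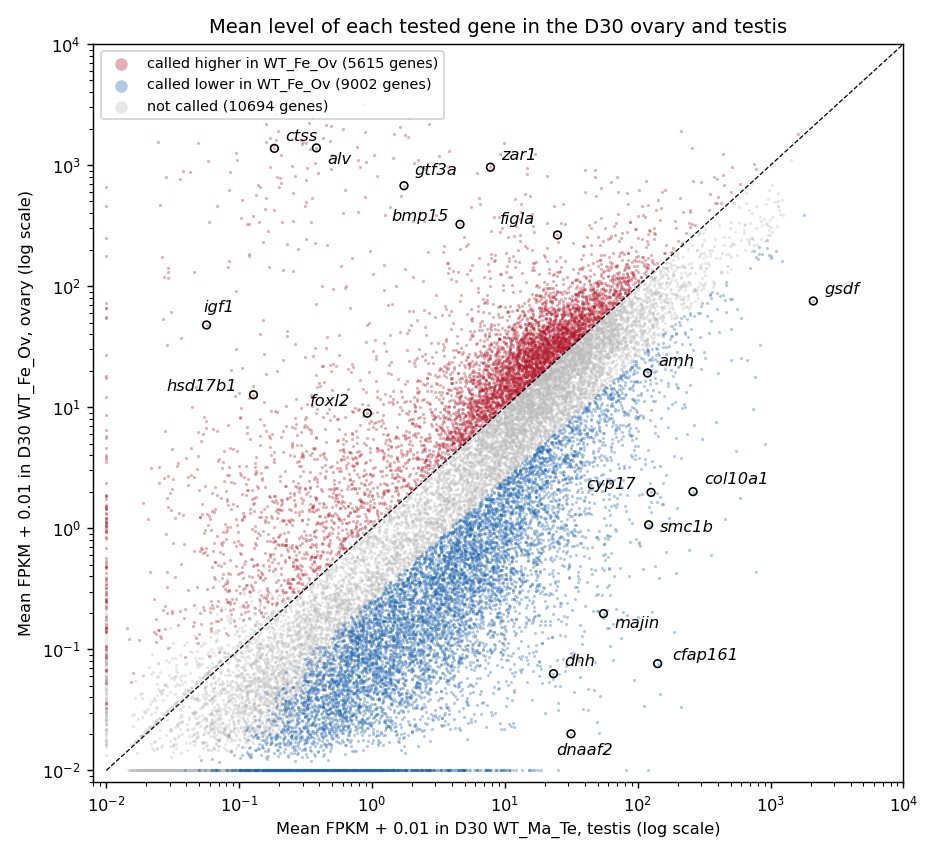
Mean FPKM plus 0.01 of each of the 25311 tested genes in D30 WT_Fe_Ov (vertical axis) and WT_Ma_Te (horizontal axis), both on log scales, with red points for the 5615 genes called higher, blue points for the 9002 called lower and grey points for those not called. The dashed line marks equal FPKM, and the band of grey points lies below it because calls were made after TMM scaling. The genes ctss, alv and zar1 stand above the dashed line and gsdf, cyp17 and cfap161 below it.

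The genes listed as oocyte factors split into a larger group that was higher in the ovary and 3 genes that were lower. This split depends on which genes the list holds. Of 9 genes tested, 6 were higher and 3 lower in WT_Fe_Ov, with a median log2 fold change of 3.49, against -0.56 over all genes tested. With library totals the counts were also 6 and 3. The figla gene encodes a basic helix-loop-helix factor that switches on egg coat genes in oocytes. It had 241, 279 and 273 FPKM in WT_Fe_Ov, against 22.6, 26.3 and 25.6 FPKM in WT_Ma_Te, and its log2 fold change was 4.37 with a standard error of 0.09 (edgeR, adjusted p = 9.6e-19). The RNA-binding zinc finger gene zar1, on chromosome 4 from 1220502 to 1221857, had 958, 945 and 976 FPKM in WT_Fe_Ov, against 6.29, 8.43 and 8.59 FPKM in WT_Ma_Te, a 240.0-fold difference on the TMM scale. Its relative zar1l had 901, 816 and 851 FPKM in WT_Fe_Ov, against 4.83, 7.21 and 6.37 FPKM in WT_Ma_Te. The oocyte growth factor gene bmp15 had 322, 323 and 327 FPKM in WT_Fe_Ov, against 4.04, 3.77 and 5.94 FPKM in WT_Ma_Te, with a log2 fold change of 7.1. In figla, zar1, zar1l and bmp15 the lowest ovary library lay far above the highest testis library, yet no testis library was at 0. The homeobox gene nobox and the GATA-type zinc finger gene zglp1 differed less, with log2 fold changes of 3.02 and 3.49.

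The 3 members that fell in WT_Fe_Ov were lhx8, dazl and kitlg. The LIM homeobox gene lhx8, known from mouse as a regulator of early oocytes, had 0.287, 0.549 and 0.499 FPKM in WT_Fe_Ov, against 21.5, 22.7 and 24.4 FPKM in WT_Ma_Te. The germ cell RNA-binding protein gene dazl had 14, 14.6 and 14.3 FPKM in WT_Fe_Ov, against 182, 224 and 197 FPKM in WT_Ma_Te, and kitlg, the ligand gene of the Kit receptor, had 0.113, 0.189 and 0.157 FPKM in WT_Fe_Ov, against 5.69, 4.76 and 4.84 FPKM in WT_Ma_Te. The log2 fold changes were -4.72, -2.86 and -4.10, and in all 3 genes the groups did not overlap.

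**Figure D2:**
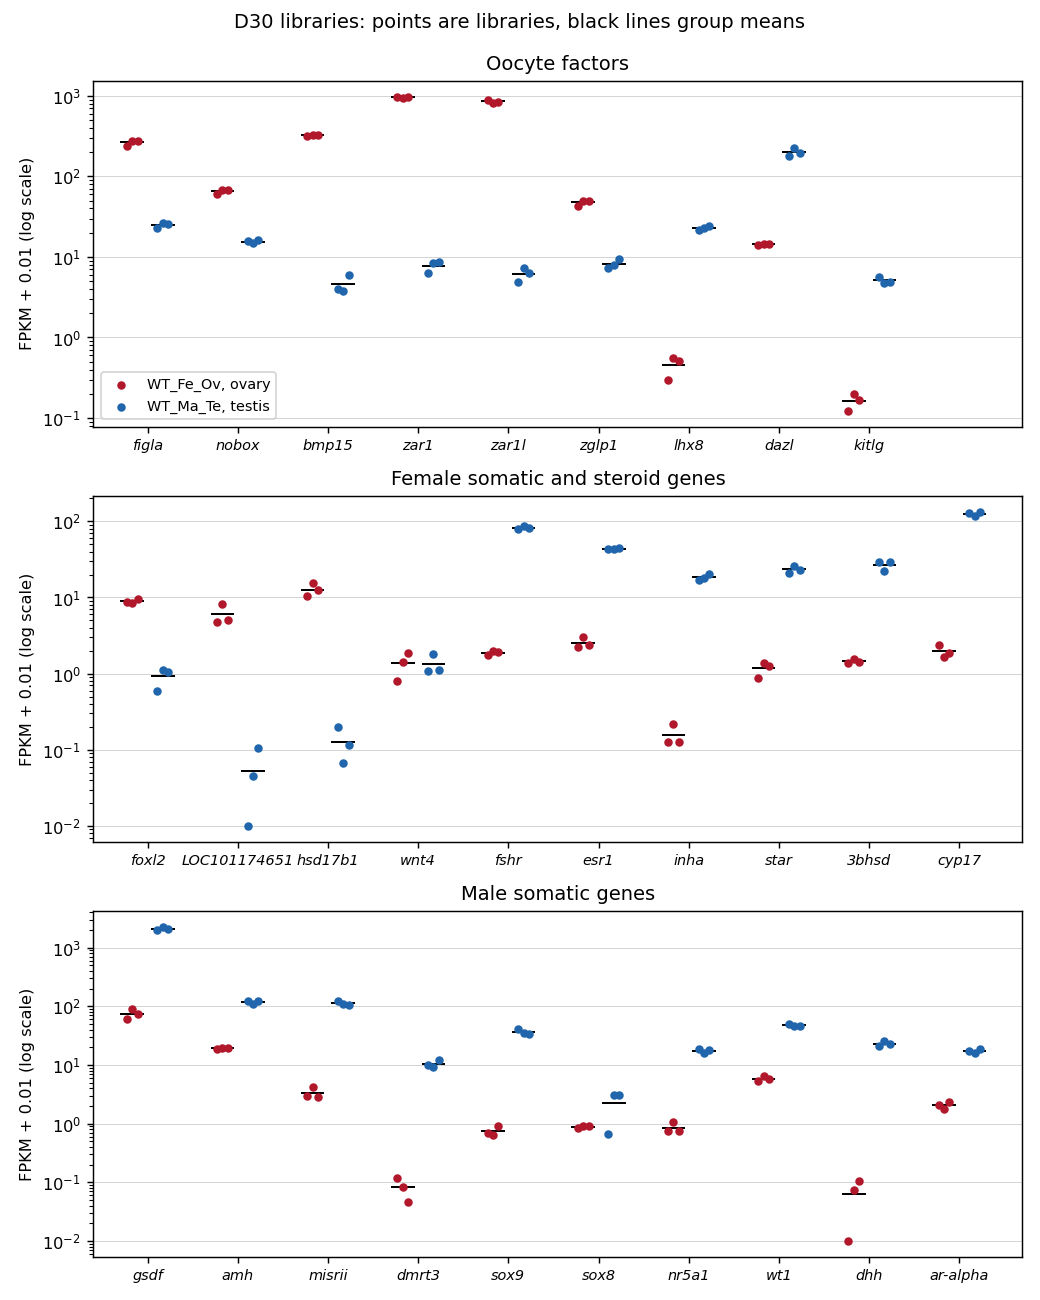
FPKM plus 0.01 on a log scale in each of the 6 D30 libraries, with WT_Fe_Ov in red to the left of WT_Ma_Te in blue for each gene, points for libraries and black lines for group means. The panels show the 9 oocyte factors, 10 female somatic and steroid genes, and 10 male somatic genes; the groups overlap in wnt4 and sox8 and in no other gene plotted, and fshr, esr1, inha, star, 3bhsd and cyp17 of the middle panel are higher in the testis.

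Genes for the storage and translation of RNA in oocytes were mostly higher in the ovary. Of 13 tested, 8 were higher and 2 lower in WT_Fe_Ov, with a median log2 fold change of 1.85, and with library totals 6 were higher and 3 lower. The Y-box protein gene ybx2, whose product coats stored mRNA in germ cells, had 609, 592 and 607 FPKM in WT_Fe_Ov, against 39.97, 34.3 and 46.3 FPKM in WT_Ma_Te. The mRNA-binding protein gene igf2bp3 had 32.7, 31.4 and 32.9 FPKM in WT_Fe_Ov, against 5.81, 4.99 and 4.42 FPKM in WT_Ma_Te. Their log2 fold changes were 4.86 and 3.62, and no ovary library came near a testis library. The deadenylation factor gene tob1 fell (-1.58), with 21.3, 22.8 and 22.6 FPKM in WT_Fe_Ov, against 129, 127 and 131 FPKM in WT_Ma_Te.

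Cell cycle genes of the maturing egg showed large differences in both directions. Of 19 tested, 9 were higher and 2 lower in WT_Fe_Ov (7 and 4 with library totals), with a median log2 fold change of 0.98. The cyclin gene ccna2 had 818, 655 and 713 FPKM in WT_Fe_Ov, against 59.7, 63.2 and 64.6 FPKM in WT_Ma_Te, and ccnb2 had 632, 546 and 579.9 FPKM in WT_Fe_Ov, against 80.03, 83.1 and 85.6 FPKM in WT_Ma_Te. The kinase gene mos, whose product keeps vertebrate eggs arrested in the second meiotic division, had 89, 87.3 and 93.6 FPKM in WT_Fe_Ov, against 9.18, 12.9 and 12.5 FPKM in WT_Ma_Te. These 3 genes had log2 fold changes of 4.50, 3.78 and 3.92. The A-type cyclins ran in opposite directions, since ccna1, known from mouse for male meiosis, had 4.3, 4.42 and 4.18 FPKM in WT_Fe_Ov, against 61.5, 67.8 and 59.6 FPKM in WT_Ma_Te, a log2 fold change of -2.92.

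Among genes for yolk uptake and the ooplasm, 4 of 9 were higher and 1 lower in WT_Fe_Ov, and the median log2 fold change of 0.68 turned to -0.28 with library totals, where 1 was higher and 3 lower. The very low density lipoprotein receptor gene vldlr, whose product takes up the yolk precursor vitellogenin in fish, had 373, 349 and 359 FPKM in WT_Fe_Ov, against 12.3, 13.5 and 13.2 FPKM in WT_Ma_Te, a log2 fold change of 5.75. It was the member that stayed higher with library totals. The calls of cltc, a clathrin gene, and ctsb, a cathepsin gene, were lost there. The water channel gene aqp1 fell, with a log2 fold change of -1.10.

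The 12 largest differences toward the ovary, among called genes with a symbol and a mean of at least 100 counts there, were in genes at or under 7.21 FPKM in every testis library. Of these, ctss, which encodes the protease cathepsin S, had 1367, 1407 and 1346 FPKM in WT_Fe_Ov, against 0.205, 0 and 0.317 FPKM in WT_Ma_Te. The quinone reductase gene nqo1 had 1536, 1510.2 and 1448 FPKM in WT_Fe_Ov, against 0, 0.663 and 0.203 FPKM in WT_Ma_Te. The medaka alveolin gene alv, on chromosome 24 from 616664 to 618323, encodes the protease that hardens the egg envelope at fertilization, and it had 1441, 1325 and 1391 FPKM in WT_Fe_Ov, against 0.794, 0.0685 and 0.252 FPKM in WT_Ma_Te. In all 3 genes every ovary library stood above 1000 FPKM and every testis library below 1 FPKM. The transcription factor IIIA gene gtf3a, whose product binds 5S RNA in frog oocytes, had 660.1, 691 and 674 FPKM in WT_Fe_Ov, against 1.65, 1.68 and 1.86 FPKM in WT_Ma_Te. The insulin-like growth factor gene igf1 had 42.4, 52.5 and 48.3 FPKM in WT_Fe_Ov, against 0, 0 and 0.14 FPKM in WT_Ma_Te, and the syntabulin gene sybu had 377, 393 and 392 FPKM in WT_Fe_Ov, against 1.78, 1.03 and 0.889 FPKM in WT_Ma_Te. The fitted log2 fold changes of these 6 genes ran from 9.24 in sybu to 13.79 in ctss, which had 10 counts in all over the WT_Ma_Te libraries, and igf1 had 7. The other 6 were serpina10, arhgap11b, zar1l, sbspon, dmbx1 and acp5, with log2 fold changes between 7.98 and 12.78.

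All of the 12 genes with the highest mean FPKM in WT_Fe_Ov carry only an LOC number, and the symbol table used here holds no description of them. Among them, LOC100169838 has the RefSeq synonym FCG2. LOC100049331 had 3237, 3289 and 3144 FPKM in WT_Fe_Ov, against 1.27, 0.713 and 0.614 FPKM in WT_Ma_Te. It lies on chromosome 24 from 6499717 to 6503983, next to LOC101170068 on chromosome 24 from 6491286 to 6495677, which had 2483, 2424 and 2372 FPKM in WT_Fe_Ov, against 2.19, 1.78 and 1.74 FPKM in WT_Ma_Te. Of these 12 genes, only LOC111948214 was above 4 FPKM in a testis library, with 1828, 1973 and 1950.4 FPKM in WT_Fe_Ov, against 197, 218 and 218 FPKM in WT_Ma_Te. In WT_Ma_Te the 12 highest means were those of gsdf, LOC101154931, actb, eef1a, tryp and 7 ribosomal protein genes. The egg coat list gave no measure of egg coat RNA. Of its 2 tested genes, lce encodes a hatching enzyme, and 1-sf had 0 counts in WT_Fe_Ov and 6 counts in all in WT_Ma_Te.

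The genes listed here for the female somatic pathway did not move as one. Of 18 tested, 4 were higher and 11 lower in WT_Fe_Ov, with a median log2 fold change of -1.68. Beside foxl2 and LOC101174651, the higher genes were hsd17b1 and ctnnb1. The hsd17b1 gene encodes the enzyme that turns estrone into estradiol, and it had 10.3, 15.3 and 12.3 FPKM in WT_Fe_Ov, against 0.19, 0.058 and 0.107 FPKM in WT_Ma_Te, a log2 fold change of 7.63. The beta-catenin gene ctnnb1 had 71.4, 53.9 and 68.5 FPKM in WT_Fe_Ov, against 56.9, 60.4 and 57.1 FPKM in WT_Ma_Te. Its groups overlapped in FPKM, and its call (1.11) was lost with library totals. The Wnt ligand gene wnt4 had 0.8, 1.39 and 1.87 FPKM in WT_Fe_Ov, against 1.07, 1.8 and 1.1 FPKM in WT_Ma_Te, without a call (0.98). It was called with DESeq2's test, with DESeq2's size factors and in fits without 1 of 2 libraries, replicate 1 of WT_Fe_Ov or replicate 2 of WT_Ma_Te, where its log2 fold change was 1.24 and 1.25.

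The 11 genes that fell included receptors and activin family genes. The estrogen receptor gene esr1 had 2.2, 3.06 and 2.35 FPKM in WT_Fe_Ov, against 43.5, 43.3 and 44.5 FPKM in WT_Ma_Te, a log2 fold change of -3.15, and esr2 fell by 1.79 on that scale. RefSeq lists several gene entries under the symbol esr2, so its counts are uncertain. The progesterone receptor gene pgr had 4.59, 5.5 and 5.52 FPKM in WT_Fe_Ov, against 30.9, 32.6 and 33.4 FPKM in WT_Ma_Te. The inhibin alpha gene inha had 0.116, 0.209 and 0.118 FPKM in WT_Fe_Ov, against 17, 17.8 and 20.1 FPKM in WT_Ma_Te, and inhbb, a gene of an inhibin and activin beta chain, had 0.416, 0.338 and 0.27 FPKM in WT_Fe_Ov, against 5.27, 5.19 and 4.71 FPKM in WT_Ma_Te. The log2 fold changes were -5.98 in inha and -2.93 in inhbb, and no library overlapped. The follistatin gene fst was low in both groups (-1.26), and its call was lost with DESeq2, under an adjusted p threshold of 0.01 and in fits that left out replicate 1 of WT_Fe_Ov (-0.98), replicate 3 of WT_Fe_Ov (-1.21) or replicate 1 of WT_Ma_Te (-1.07).

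The male somatic genes were lower in the ovary almost without exception. Of 22 tested, 21 were lower in WT_Fe_Ov and none was higher, with a median log2 fold change of -3.10, and 22 were lower with library totals. The list was chosen with earlier results of these data known, so this count depends on that choice. The inhbb gene belongs to both the male and the female somatic list and is counted as lower in each. The receptor gene of anti-Müllerian hormone, misrii, had 3.0, 4.22 and 2.89 FPKM in WT_Fe_Ov, against 122, 110.3 and 107 FPKM in WT_Ma_Te, a log2 fold change of -4.11. The dmrt3 gene, of the DM domain family to which the male-determining gene belongs, had 0.107, 0.0734 and 0.0362 FPKM in WT_Fe_Ov, against 9.96, 9.32 and 12.3 FPKM in WT_Ma_Te. The desert hedgehog gene dhh, which encodes a Sertoli cell signal in mammals, had 0, 0.0641 and 0.0948 FPKM in WT_Fe_Ov, against 21, 25.4 and 23.2 FPKM in WT_Ma_Te. Both were near 0 in the ovary, with 6 and 5 counts in all and fitted log2 fold changes of -6.17 and -7.76, and ptch1, which encodes the hedgehog receptor, followed with -2.69. The nuclear receptor gene nr5a1 had 0.731, 1.07 and 0.743 FPKM in WT_Fe_Ov, against 18.7, 15.9 and 18.2 FPKM in WT_Ma_Te, the androgen receptor gene ar-alpha had 2.06, 1.75 and 2.33 FPKM in WT_Fe_Ov, against 17.6, 16.3 and 18.8 FPKM in WT_Ma_Te, and the growth factor gene pdgfa had 0.451, 0.44 and 0.362 FPKM in WT_Fe_Ov, against 13.3, 12.1 and 11.6 FPKM in WT_Ma_Te. The zinc finger gene wt1 fell as well (-2.07), but several RefSeq entries share its symbol, so its counts are uncertain. The member not called was sox8, with 0.842, 0.915 and 0.902 FPKM in WT_Fe_Ov, against 0.651, 3.06 and 3.02 FPKM in WT_Ma_Te.

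As a list, the genes of steroid synthesis had a median log2 fold change of -0.56, that of all genes tested. Of 11 tested, 1 (9.09%) was higher and 5 (45.5%) lower in WT_Fe_Ov, against 22.2% and 35.6% of all genes tested. None was higher and 7 were lower with library totals. This list does not hold LOC101174651 and hsd17b1, which were counted as female somatic. The star gene, whose product carries cholesterol into mitochondria, had 0.874, 1.35 and 1.26 FPKM in WT_Fe_Ov, against 21.2, 26.1 and 22.7 FPKM in WT_Ma_Te. The gene of 3-beta-hydroxysteroid dehydrogenase, 3bhsd, had 1.36, 1.54 and 1.43 FPKM in WT_Fe_Ov, against 28.8, 22.2 and 29.1 FPKM in WT_Ma_Te, and cyp17, which encodes the enzyme that leads to androgens, had 2.39, 1.65 and 1.87 FPKM in WT_Fe_Ov, against 127, 117 and 133 FPKM in WT_Ma_Te. The log2 fold changes were -3.37, -3.25 and -5.04, the last with an adjusted p of 4.8e-18 in edgeR. The ferredoxin reductase gene fdxr was the 1 called higher (1.44), a call lost with library totals, and fdx1, cbr1 and hsd17b3 had positive log2 fold changes (0.68, 0.37 and 0.18) that turned negative there. The genes LOC101174651 and hsd17b1, whose enzymes make estrogens, thus stood higher in WT_Fe_Ov while star, 3bhsd and cyp17 stood lower.

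**Figure D3:**
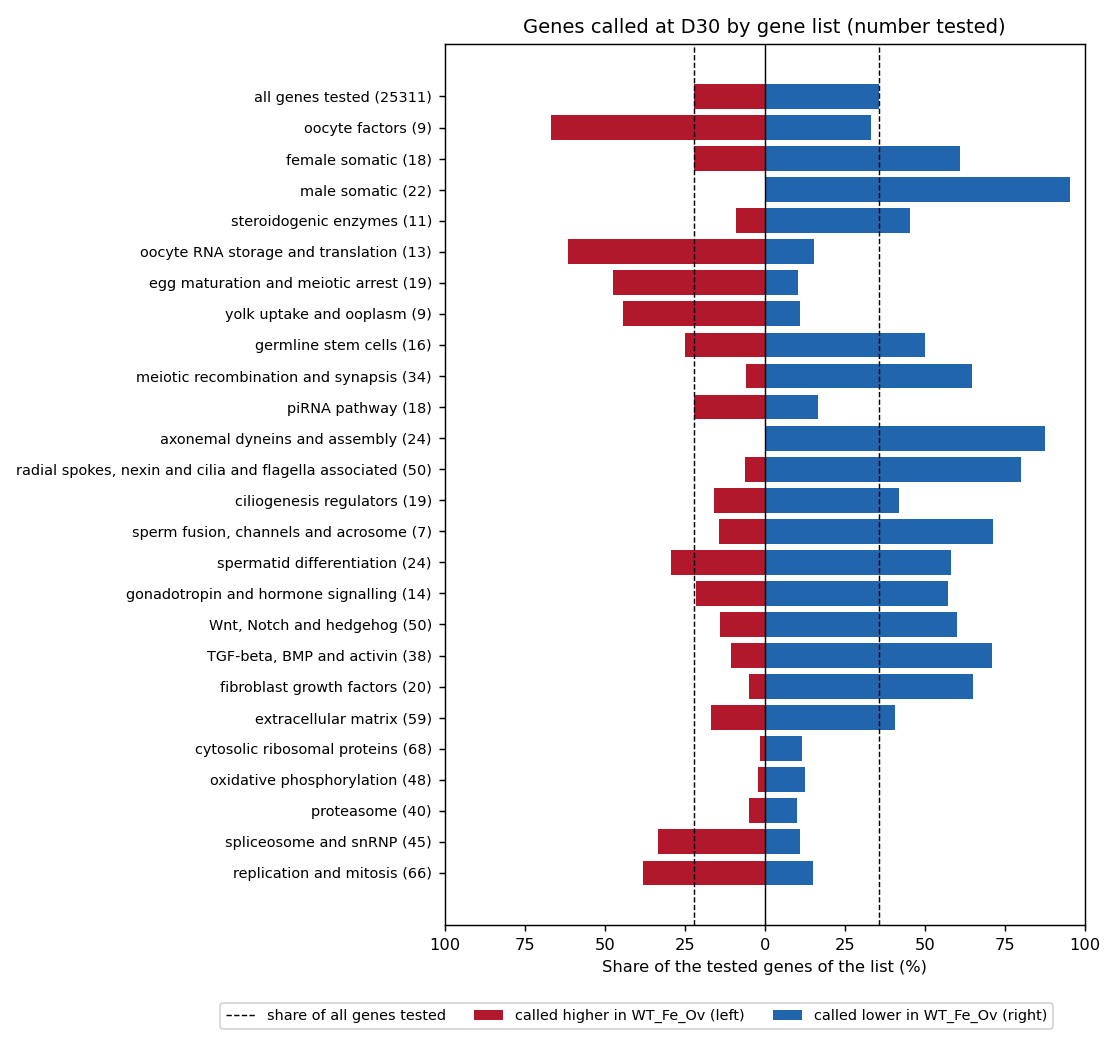
Share of the tested genes of each list with at least 5 of them called higher in D30 WT_Fe_Ov (red, to the left) and lower (blue, to the right), in percent, with the number tested in brackets and dashed lines at the 22.2% and 35.6% of all genes tested. The bars of the male somatic genes, the axonemal dyneins and the cilia and flagella genes run almost wholly to the right, and those of the oocyte factors and the RNA storage genes mostly to the left.

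Genes of meiotic recombination and synapsis, a stage that both sexes pass through, were mostly lower in the ovary. Of 34 tested, 22 were lower and 2 higher in WT_Fe_Ov, with a median log2 fold change of -2.13. With library totals 27 were lower and 1 was higher. The gene majin, whose product ties telomeres to the nuclear envelope in mouse meiosis, had 0.277, 0.214 and 0.0704 FPKM in WT_Fe_Ov, against 52.1, 60.2 and 53.4 FPKM in WT_Ma_Te. The meiotic cohesin gene smc1b had 0.926, 1.15 and 1.1 FPKM in WT_Fe_Ov, against 126, 115 and 121 FPKM in WT_Ma_Te, and spata22, a partner of the recombination protein MEIOB, had 1.63, 1.31 and 1.75 FPKM in WT_Fe_Ov, against 145, 158 and 151 FPKM in WT_Ma_Te. In these 3 genes the ovary libraries stood below 2 FPKM and the testis libraries above 50, with log2 fold changes of -7.20, -5.88 and -5.64. Another 10 of the list were not called. In TMM-scaled CPM the testis libraries stood above the ovary libraries in 27 of the 34 genes and below them in 6. The 2 higher genes were ccdc36, which had 68.6, 73.9 and 71.1 FPKM in WT_Fe_Ov, against 32.4, 31.8 and 35.8 FPKM in WT_Ma_Te, and the endonuclease gene mus81, whose call was lost with library totals.

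The genes of the flagellum were almost all lower in the ovary or not called. Of 24 axonemal dynein and dynein assembly genes, 21 were lower and none higher in WT_Fe_Ov, with a median log2 fold change of -3.75. A mean of at least 1 FPKM was reached by 9 of them in WT_Fe_Ov and by 23 in WT_Ma_Te, and the sum over the list was 102.9 to 107.7 FPKM in WT_Fe_Ov libraries and 833 to 979.6 FPKM in WT_Ma_Te libraries. The dynein assembly gene dnaaf2 had 1 count in all over the WT_Fe_Ov libraries and 1118 to 1232 counts in each WT_Ma_Te library, and dnaaf4 had 3 counts in all in WT_Fe_Ov and 1363 to 1503 counts in each WT_Ma_Te library. The assembly gene pih1d3 had 0.0805, 0.249 and 0.245 FPKM in WT_Fe_Ov, against 125, 132 and 129.5 FPKM in WT_Ma_Te. No fold is given for dnaaf2 and dnaaf4 because of these low counts.

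Of 50 genes of radial spokes, nexin links and other cilia and flagella proteins, 40 were lower and 3 higher, with a median log2 fold change of -3.88. The flagellar gene cfap161 had 0.0655, 0 and 0.133 FPKM in WT_Fe_Ov, against 142, 150.0 and 131 FPKM in WT_Ma_Te. The nexin-dynein regulatory gene drc1 had 0.0667, 0.0687 and 0.203 FPKM in WT_Fe_Ov, against 71.9, 76 and 78.2 FPKM in WT_Ma_Te. The cfap52 gene, whose primers are shown above and which was chosen after its values were seen, had 0.513, 1.08 and 0.938 FPKM in WT_Fe_Ov, against 53.9, 45.6 and 47.3 FPKM in WT_Ma_Te, a log2 fold change of -4.90. In each of these 3 genes every testis library stood above 40 FPKM and no ovary library above 1.08 FPKM. The 3 exceptions were tekt4, spag1 and efhb. The dynein assembly gene spag1 had 26.4, 24.9 and 24.6 FPKM in WT_Fe_Ov, against 12.3, 13 and 13.7 FPKM in WT_Ma_Te, and efhb had 84.5, 87.8 and 84.6 FPKM in WT_Fe_Ov, against 51, 51.5 and 56.5 FPKM in WT_Ma_Te. The calls of spag1 and efhb were lost with library totals.

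The genes that regulate cilia lay nearer to all genes tested than the structural genes did. Of 19 tested, 8 (42.1%) were lower and 3 (15.8%) higher in WT_Fe_Ov, against 35.6% and 22.2% of all genes tested, with a median log2 fold change of -0.70, or -0.43 with the gene without counts in the ovary set at its lower bound. The forkhead gene foxj1, a master regulator of motile cilia, had 0.0195, 0.0603 and 0.0396 FPKM in WT_Fe_Ov, against 6.87, 4.38 and 6.09 FPKM in WT_Ma_Te. The factor gene rfx2 had 0.559, 0.746 and 0.542 FPKM in WT_Fe_Ov, against 11.8, 12.3 and 12.1 FPKM in WT_Ma_Te. Their log2 fold changes were -6.18 and -3.34. The higher genes were cdc20b, stil and gmnc, of which stil, a centriole duplication gene, had 21.6, 20.4 and 22.3 FPKM in WT_Fe_Ov, against 10.8, 10.1 and 10.4 FPKM in WT_Ma_Te.

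Among 7 genes of sperm fusion, channels and the acrosome, 5 were lower and 1 higher in WT_Fe_Ov. The sperm surface gene izumo1, whose product binds the egg, had 0.106, 0.438 and 0.27 FPKM in WT_Fe_Ov, against 61.1, 68.1 and 56.9 FPKM in WT_Ma_Te. Its partner gene spaca6 had 0, 0.0353 and 0.174 FPKM in WT_Fe_Ov, against 33.4, 44.7 and 31.1 FPKM in WT_Ma_Te, and tmem81 had 0.116, 0 and 0.117 FPKM in WT_Fe_Ov, against 15.9, 16.6 and 17.2 FPKM in WT_Ma_Te. The ovary libraries of these 3 genes lay under 1 FPKM throughout. The 1 higher gene, tbpl2, encodes a TATA-binding protein relative used in oocytes of frog and mouse, and it had 10.9, 11.4 and 11.1 FPKM in WT_Fe_Ov, against 0.0361, 0.243 and 0.149 FPKM in WT_Ma_Te.

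Of 24 genes named for spermatid differentiation, 14 were lower and 7 higher in WT_Fe_Ov. The central apparatus gene spag6 had 0.387, 0.332 and 0.622 FPKM in WT_Fe_Ov, against 49, 41.6 and 42.9 FPKM in WT_Ma_Te, and tex9 had 0.0897, 0.277 and 0.091 FPKM in WT_Fe_Ov, against 32, 27.2 and 26.9 FPKM in WT_Ma_Te. The 7 higher members were hook1, spata7, spata1, spata2l, spag1, spag5 and spag7, among them the mitotic spindle gene spag5. The microtubule linker gene hook1, which shapes the sperm head in mouse, had 149, 158 and 151 FPKM in WT_Fe_Ov, against 7.96, 7.06 and 7.51 FPKM in WT_Ma_Te, and spata7, a gene of the photoreceptor cilium in mammals, had 37.6, 44.5 and 39.2 FPKM in WT_Fe_Ov, against 5.99, 4.92 and 5.95 FPKM in WT_Ma_Te. Their log2 fold changes were 5.30 and 3.80.

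Germline genes outside meiosis went in both directions, as did all genes tested. Of 16 germline stem cell genes, 4 (25%) were higher and 8 (50%) lower in WT_Fe_Ov, against 22.2% and 35.6% of all genes tested. With library totals 2 were higher and 11 lower. The homeobox gene nanog, a pluripotency factor, had 161, 149 and 155 FPKM in WT_Fe_Ov, against 48.9, 41.7 and 47.5 FPKM in WT_Ma_Te, and the RNA-binding protein gene nanos3 had 45.6, 43.1 and 43.8 FPKM in WT_Fe_Ov, against 14.5, 14.9 and 13.4 FPKM in WT_Ma_Te. Both were higher, at log2 fold changes of 2.71 and 2.59. On the other side, gfra1, which encodes a GDNF co-receptor of spermatogonial stem cells, had 0.0752, 0.258 and 0.127 FPKM in WT_Fe_Ov, against 3.03, 4.08 and 4.27 FPKM in WT_Ma_Te, and zbtb16, a factor gene of the same cells in mammals, had 0.624, 0.571 and 0.594 FPKM in WT_Fe_Ov, against 6.9, 6.61 and 6.74 FPKM in WT_Ma_Te. The piRNA pathway silences transposons in both germlines. It had 4 of 18 genes higher (22.2%) and 3 lower (16.7%), against 22.2% and 35.6% of all genes tested. Its median log2 fold change of 0.31 turned to -0.64 with library totals, where none was higher and 7 were lower. The helicase gene mov10l1 had 90.03, 90.2 and 89.6 FPKM in WT_Fe_Ov, against 54.5, 41.7 and 46.6 FPKM in WT_Ma_Te, and tdrd1 had 192, 183 and 185 FPKM in WT_Fe_Ov, against 168, 148 and 156 FPKM in WT_Ma_Te. The nuclease-like gene pld6 had 3.59, 3.67 and 3.78 FPKM in WT_Fe_Ov, against 59.3, 72.8 and 56.2 FPKM in WT_Ma_Te, a log2 fold change of -3.14.

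Signalling genes were mostly lower in the ovary. Of 38 genes of the TGF-beta, BMP and activin families, 27 were lower and 4 higher in WT_Fe_Ov, with a median log2 fold change of -2.0 (-1.82 with genes at 0 set at their bound). The ligand gene tgfb3 had 0.643, 0.856 and 0.926 FPKM in WT_Fe_Ov, against 26.3, 26.4 and 30.5 FPKM in WT_Ma_Te. The higher genes beside bmp15 included acvr1 and gdf3, both lost with library totals. Of 50 Wnt, Notch and hedgehog genes, 30 were lower and 7 higher, with a median of -2.14 (-1.53 at the bound). The Wnt ligand gene wnt7a had no count in any WT_Fe_Ov library and 1.79, 3.45 and 3.52 FPKM in WT_Ma_Te libraries, which makes it at least 18.6-fold lower in WT_Fe_Ov when 3 counts per library are taken as the floor. The receptor gene lgr6 had 0.0704, 0.169 and 0.143 FPKM in WT_Fe_Ov, against 12.5, 12.1 and 11.5 FPKM in WT_Ma_Te. The Notch ligand gene jag1 had 25, 23.4 and 25.4 FPKM in WT_Fe_Ov, against 10.00, 7.33 and 7.84 FPKM in WT_Ma_Te and was higher, with a log2 fold change of 2.51. Of 20 fibroblast growth factor and receptor genes, 13 were lower and 1 higher. The receptor genes went apart, with log2 fold changes of 1.93 in fgfr1, a call lost with library totals, and -4.31 in fgfr3.

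Hormone signalling genes were also mostly lower in the ovary. Of 14 genes of gonadotropin and hormone signalling, 8 were lower and 3 higher in WT_Fe_Ov, and the receptor gene fshr had 1.74, 1.97 and 1.94 FPKM in WT_Fe_Ov, against 79.6, 85.9 and 82.8 FPKM in WT_Ma_Te. The prolactin receptor gene prlr had 0.151, 0.136 and 0.172 FPKM in WT_Fe_Ov, against 4.18, 3.07 and 3.58 FPKM in WT_Ma_Te, and pparg, a nuclear receptor gene of lipid metabolism, had 0.655, 0.745 and 0.78 FPKM in WT_Fe_Ov, against 13.6, 16.4 and 17 FPKM in WT_Ma_Te. Of 59 extracellular matrix genes, 24 were lower and 10 higher, with a median log2 fold change of -0.58, close to that of all genes, and 35 were lower and 3 higher with library totals. The collagen gene col10a1 had 2.43, 1.57 and 1.99 FPKM in WT_Fe_Ov, against 270.3, 247 and 264 FPKM in WT_Ma_Te, and the laminin gene lama3 had 0.135, 0.115 and 0.114 FPKM in WT_Fe_Ov, against 5.09, 4.81 and 4.65 FPKM in WT_Ma_Te. In the other direction, the basement membrane collagen gene col4a5 had 20.2, 22.2 and 22.9 FPKM in WT_Fe_Ov, against 2.2, 2.06 and 2.02 FPKM in WT_Ma_Te, and lamb3 had 8.0, 7.72 and 8.41 FPKM in WT_Fe_Ov, against 1.82, 2.04 and 2.03 FPKM in WT_Ma_Te. The log2 fold changes of these 4 genes were -6.07, -4.36, 4.33 and 2.99.

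Genes with no count in the ovary were among the largest fitted differences toward the testis. Such fitted values rest on the prior count, and only lower bounds are known for these genes. The bounds below do not place them above genes with counts in both groups, such as col10a1 (67-fold lower in WT_Fe_Ov). The cytokine gene il10 had 0 counts in all 3 WT_Fe_Ov libraries, against 5.62, 9.6 and 5.84 FPKM in WT_Ma_Te. The gene c15h6orf118 also had 0 counts in WT_Fe_Ov, against 6.08, 7.78 and 7.87 FPKM in WT_Ma_Te. At the floor of 3 counts per library they were at least 22.7-fold and 34.7-fold lower in WT_Fe_Ov. The same held for syndig1l, at least 17.7-fold lower, and for lypd1, at least 17.2-fold lower. The genes morn2 and wdr66 had 3 counts each over the WT_Fe_Ov libraries and 1194 to 1345 and 995 to 1307 counts in WT_Ma_Te libraries.

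Genes that most cells use differed less, and the number called rested on the scaling. Of 68 cytosolic ribosomal protein genes, 1 was higher and 8 lower in WT_Fe_Ov, while none was higher and 56 were lower with library totals. Their summed FPKM was 18840 to 20040 in WT_Fe_Ov libraries and 49230 to 53580 in WT_Ma_Te libraries. The rps16 gene had 166, 159.6 and 159.8 FPKM in WT_Fe_Ov, against 1239, 1303 and 1142 FPKM in WT_Ma_Te, a log2 fold change of -1.97. Of 48 oxidative phosphorylation genes, 1 was higher and 6 lower (0 and 34 with library totals), among them the complex I gene ndufs1, with 0.241, 0.319 and 0.419 FPKM in WT_Fe_Ov, against 17.6, 17.4 and 17.7 FPKM in WT_Ma_Te. Of 40 proteasome genes, 2 were higher and 4 lower (0 and 13 with library totals), and the median of 0.43 turned to -0.53. With library totals 82.4% of the ribosomal protein, 70.8% of the oxidative phosphorylation and 32.5% of the proteasome genes were lower, against 50.9% of all genes. The immunoproteasome gene psmb8 had 1.91, 2.25 and 2.84 FPKM in WT_Fe_Ov, against 119.8, 141 and 108 FPKM in WT_Ma_Te, and psmb9 had 0.847, 0.698 and 0.688 FPKM in WT_Fe_Ov, against 34.5, 44.4 and 34 FPKM in WT_Ma_Te. Both were called lower on either scale.

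RNA processing and division genes leaned to the ovary on the TMM scale. Of 45 spliceosome genes, 15 were higher and 5 lower in WT_Fe_Ov, but 5 were higher and 13 lower with library totals, and the median of 0.49 turned to -0.46. The mRNA decapping gene lsm1 had 314, 353 and 325 FPKM in WT_Fe_Ov, against 20.7, 33.4 and 25.2 FPKM in WT_Ma_Te, and snrpb2 had 124, 136 and 142 FPKM in WT_Fe_Ov, against 26.9, 24.5 and 27.1 FPKM in WT_Ma_Te. Of 66 replication and mitosis genes, 25 were higher and 10 lower, against 11 and 24 with library totals, and the median of 0.58 turned to -0.37. The cyclin gene ccnb1 had 761, 736 and 716 FPKM in WT_Fe_Ov, against 115, 114 and 118 FPKM in WT_Ma_Te, a log2 fold change of 3.63. In the other direction, cdk6, which drives entry into the cycle, had 0.434, 0.685 and 0.705 FPKM in WT_Fe_Ov, against 7.52, 8.42 and 9.29 FPKM in WT_Ma_Te. The higher calls of lsm1, snrpb2 and ccnb1 held on both scales.

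Markers of tissues that a dissected gonad can hold also summed to more FPKM in the testis libraries. The 2 pancreas genes found, cpb1 and pla2g1b, summed to 83.7 to 152 FPKM in WT_Fe_Ov and 507 to 656 FPKM in WT_Ma_Te. On the TMM scale cpb1, the larger part of this sum, was not called (-0.87), while pla2g1b was called lower (-2.80). The trypsin gene tryp, one of the 12 genes with the highest mean in WT_Ma_Te, had 393, 628 and 509 FPKM in WT_Fe_Ov, against 1216, 1324 and 1107 FPKM in WT_Ma_Te, without a call (-0.30), though it was called lower with library totals. RNA of a digestive enzyme was thus measured in all 6 libraries. The 8 liver genes summed to 10.6 to 11.1 FPKM in WT_Fe_Ov and 228 to 245 FPKM in WT_Ma_Te, most of it from rbp4 and LOC100144362, for which RefSeq gives the synonym tf. The fibrinogen genes fga, fgb and fgg stayed at or under 1.1 FPKM in all 6 libraries. Of the 8 liver genes, 4 were called lower in WT_Fe_Ov, hpx (-2.85) and itih2 (-2.58) among them, and 1 higher. The 8 blood and immune genes summed to 46.9 to 60.4 FPKM in WT_Fe_Ov and 549 to 577 FPKM in WT_Ma_Te, most of it from cd74, which had 38.7, 50.8 and 43.5 FPKM in WT_Fe_Ov, against 498, 516 and 498 FPKM in WT_Ma_Te. The T cell and macrophage gene cd4 had 1.89, 1.83 and 1.69 FPKM in WT_Fe_Ov, against 36.1, 44.2 and 39.9 FPKM in WT_Ma_Te. Both were higher in every testis library than in any ovary library. Of the 8 genes 4 were called lower in WT_Fe_Ov, these among them, and none was called higher. The erythroid factor gene gata-1 (0.45) and the lysozyme gene lyz (1.24) had positive log2 fold changes without a call. The 9 muscle genes summed to 3.17 to 7.31 FPKM in WT_Fe_Ov and 21.2 to 23.8 FPKM in WT_Ma_Te. The 14 nerve and kidney genes summed to 9.45 to 10.7 FPKM in WT_Fe_Ov and 22.6 to 24.2 FPKM in WT_Ma_Te. FPKM sums rest on library totals, and on the TMM scale syt1, the member with the highest FPKM, was not called (-0.53), while 8 of the 14 were lower and 1 higher, with a median log2 fold change of -1.31. The neuronal gene snap25 was at 0 in all WT_Fe_Ov libraries and at 0.467 to 0.544 FPKM in WT_Ma_Te libraries. Of the 41 genes of these lists, 22 were lower and 3 higher in WT_Fe_Ov, the higher ones being fgb (1.83), the muscle gene mybpc2 (3.68) and the kidney gene cubn (3.37). Within the 5 lists, 50% to 57.1% were lower and 0% to 12.5% higher, against 35.6% and 22.2% of all genes tested. The part of such cells in the differences above was not tested. The marker genes cd74, cd4, gata-1, lyz, syt1, rbp4 and LOC100144362 were picked out after their values were seen. So were fga, fgb, fgg, hpx and itih2.

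**Figure D4:**
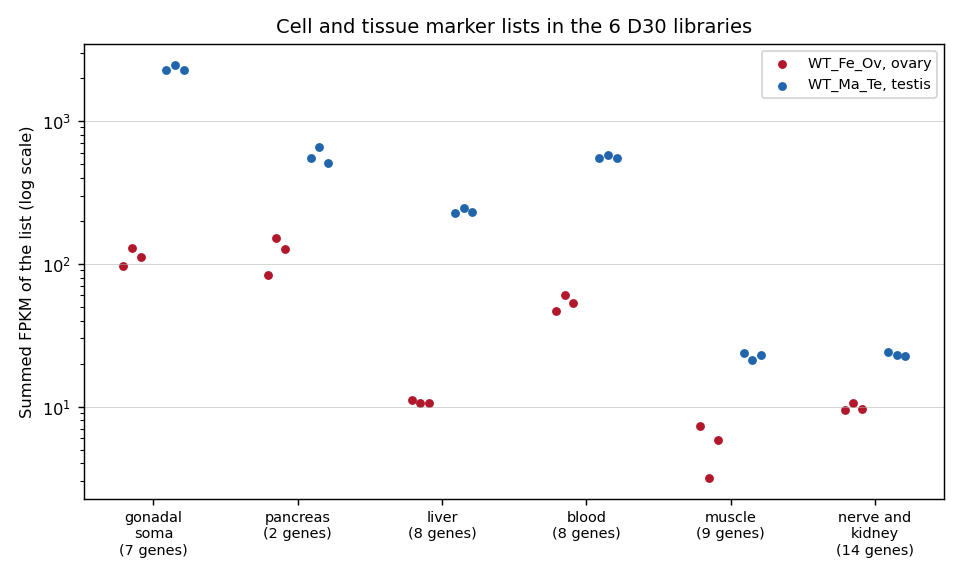
Summed FPKM, which is scaled to library totals and not by TMM, on a log scale for marker lists in the 6 D30 libraries, WT_Fe_Ov in red to the left of WT_Ma_Te in blue, 1 point per library. In all 6 lists the 3 testis libraries lie above the 3 ovary libraries, by the widest margins in the gonadal soma and liver lists. The gonadal soma list mixes female and male markers. Most of its sum in the testis comes from gsdf, while foxl2 and LOC101174651 are higher in the ovary.

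The D120 libraries give the same contrast with equal read length in both tissues, and they share no library with D30. Of the genes tested at both stages, 5605 were higher in WT_Fe_Ov at D30 and 5899 at D120, and 3582 were higher at both, which is 63.9% of the D30 genes and 60.7% of the D120 genes. For genes lower in WT_Fe_Ov the shared number was 4746, or 53.1% of 8938 at D30 and 64.1% of 7401 at D120. Called in opposite directions were 219 genes higher in WT_Fe_Ov at D30 (3.91% of the higher genes) and 611 lower (6.84% of the lower genes). The test of the difference between stages called all of them. Their choice by opposite calls in the same libraries had all but fixed this outcome, so it adds no support. At D120, 23.6% of 24997 genes tested were higher and 29.6% lower. That test called 10082 of 25497 genes (39.5%), so the contrast differed in size between D30 and D120 for many genes.

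The lists differed in how far they were shared. All 21 axonemal dynein genes that were lower in WT_Fe_Ov at D30 were also lower at D120, as were 21 of the 22 lower genes of meiotic recombination and synapsis, and the medians at D120 were -5.94 and -4.04. All 6 higher oocyte factors were higher again, with a median over the 9 genes of 5.59. Of the 21 male somatic genes lower in WT_Fe_Ov at D30, 11 were lower and 2, inhbb and ar-alpha, higher at D120. These counts lie near the shares of all genes lower at D30, of which 53.1% were lower and 6.84% higher at D120. Of 20 fibroblast growth factor genes, 7 were higher and 4 lower in WT_Fe_Ov at D120, and of 68 ribosomal protein genes 10 were higher and none lower. At D120, 3 of the 8 blood and immune genes were higher and none lower. The liver list had 1 higher and 3 lower, the muscle list 1 and 2, and the nerve and kidney list 1 and 6. In the pancreas list 1 was lower. The genes cd74, cd4, rbp4 and LOC100144362 were not called at D120 (0.26, -0.52, 0.05 and -0.37). Over all genes tested at D120, 23.6% were higher and 29.6% lower. The log2 fold change of foxl2 was 4.24 at D30 and 9.88 at D120, and the difference in the joint fit was -5.73 with a standard error of 0.78 (edgeR, adjusted p = 7.6e-06). At D120 foxl2 had 29, 15.2 and 21.3 FPKM in WT_Fe_Ov, against 0.0525, 0 and 0 FPKM in WT_Ma_Te. Its fitted value at D120 and the difference thus rest in part on the prior count. The log2 fold change of inha was -5.98 at D30 and -0.93 at D120, without a call at D120, and the joint fit called the difference of -5.06.

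**Figure D5:**
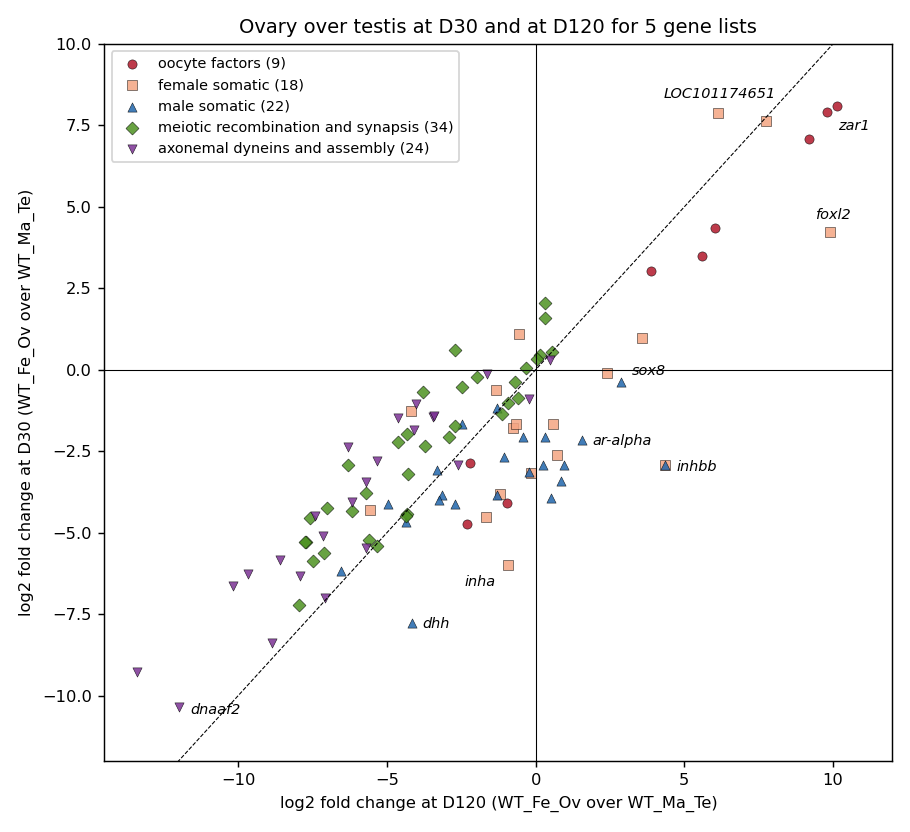
Log2 fold change of WT_Fe_Ov over WT_Ma_Te at D30 (vertical axis) and at D120 (horizontal axis) for the tested members of 5 lists (inhbb stands in 2 of them), with equal values on the dashed line. Oocyte factors at the upper right and axonemal and meiotic genes at the lower left lie mostly farther from 0 at D120, while inhbb and ar-alpha lie on opposite sides of 0 at the 2 stages.

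Long noncoding RNA genes leaned to the testis. Of 2889 tested, 13.9% were higher and 40.8% lower in WT_Fe_Ov, against 23.8% and 35.2% of 21826 protein-coding genes. Over the 24 chromosomes, the share of genes called higher ran from 17.4% on chromosome 18 to 25.2% on chromosome 15. Chromosome 1, which carries the sex-determining region of medaka, had 23.1% higher and 33.8% lower of 1388 genes, close to the shares of all genes. By summed exon length, and over genes with 10 counts or more on average, the median log2 fold change was -0.60 in the shortest of 5 bins, those under 1000 bases, -0.02 in the bin above it and -0.55 in the longest. Read length was not a term in any fit.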

How the data were processed

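Gonads of 27 medaka samples were profiled by poly(A) RNA-seq, and the 3 WT_Fe_Ov and 3 WT_Ma_Te libraries of D30 were compared. The authors trimmed reads with fastp, aligned them with STAR end to end to the ASM223467v1 genome and counted read pairs over exons of genes with featureCounts, by the study's methods. The deposited counts are raw. The authors derived FPKM with DESeq2, and the deposited FPKM values equal these counts over exon length and library total. Totals are 14855932 to 17586392 counts per D30 library.

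Genes with at least 1 count over the libraries of a fit were tested on counts with edgeR 4.0.16 (limma 3.58.1, R 4.3.3), in glmQLFit and glmQLFTest with TMM scaling and Benjamini-Hochberg adjustment. A call took an adjusted p up to 0.05 and a log2 fold change of 1 or more in either direction. The same fit was made for D120, and the difference between stages was tested in 1 fit of 12 libraries. The D30 fit was tested on simulated data in which few genes were changed, as many up as down. That simulation could not test the scaling for data in which as many genes differ as were called here. With 3 libraries a group, the adjusted p comes from the edgeR model over all genes.

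The members and the 32 gene lists were chosen with earlier results of these data known, and some symbols were added to the lists as RefSeq synonyms after the symbols of the files were seen. Genes are named if they belong to the lists of oocyte factors, female somatic, male somatic or steroidogenic genes. From every other list up to 3 genes in each direction are named, those with the largest change among called genes whose groups did not overlap in CPM and whose higher group had a mean of at least 100 counts. The same rule named 12 genes in each direction among all genes without an LOC number, and the 12 genes with the highest mean FPKM in each group were added. Further genes with values were chosen after these were seen (cfap52, acta1 and tissue markers).

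Names, synonyms and positions come from the RefSeq table of ASM223467v1, in which 26090 of 26099 symbols were found. The other 9 symbols had been turned into dates and are not named. A few genes that the rule names are not reported here. Alternatives were DESeq2 1.42.0 (test and size factors), library totals, filterByExpr, stricter thresholds, a block for the replicate number, all 27 libraries fitted together and leaving out each library. Figures were drawn with matplotlib 3.10.9.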

Additional observations from a re-analysis of the deposited data

Results flagged for a closer look

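The contrast of ovary and testis pointed in opposite directions at D30 and D120 for 219 genes that were higher in WT_Fe_Ov at D30 and for 611 genes that were lower. The test of the difference between stages, edgeR's quasi-likelihood test on the 12 libraries, called all of them. Opposite calls in these same libraries had all but fixed this outcome, so it adds no support. Of the 203 genes that the naming rules picked or that were added to them, 10 were among these oppositely called genes. At D30, 8 of the 10 were lower and 2 higher in WT_Fe_Ov. Each difference below is the log2 fold change at D30 minus that at D120. The D30 testis libraries alone had shorter reads, and read length was not a term in this test.

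Among these 10 the collagen gene col10a1 had a difference of -8.43, with a log2 fold change of -6.07 at D30 and 2.39 at D120. At D120 it had 2.3, 2.99 and 12.6 FPKM in WT_Fe_Ov, against 2.32, 0.519 and 1.4 FPKM in WT_Ma_Te, with overlapping groups and 1 ovary library far above the others. The inhibin and activin chain gene inhbb had a difference of -7.29. At D120 it had 5.01, 4.83 and 3.43 FPKM in WT_Fe_Ov, against 0.116, 0.281 and 0.424 FPKM in WT_Ma_Te.

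The cholesterol carrier gene star had a difference of -4.80, with 11.6, 8.03 and 9.79 FPKM in WT_Fe_Ov, against 5.45, 4.1 and 4.15 FPKM in WT_Ma_Te at D120. The androgen receptor gene ar-alpha had a difference of -3.69, with 15.2, 14.3 and 13 FPKM in WT_Fe_Ov, against 5.15, 6.24 and 6.81 FPKM in WT_Ma_Te at D120. For star, inhbb and ar-alpha the testis was higher at D30 and the ovary at D120.

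The prolactin receptor gene prlr had a difference of -5.22, the nuclear receptor gene pparg of -4.68 and prdm1, a germ cell factor gene in mouse, of -4.59. The groups of prlr overlapped at D120, with 1.21, 0.645 and 2.23 FPKM in WT_Fe_Ov, against 0.37, 0.243 and 1.07 FPKM in WT_Ma_Te. The muscle actin gene acta1, a marker of muscle, had a difference of -4.26. The other 2 genes were higher in WT_Fe_Ov at D30 and lower at D120. These were spata7, with a difference of 6.17 and 0.937, 1.27 and 2.92 FPKM in WT_Fe_Ov, against 18.4, 6.97 and 7.51 FPKM in WT_Ma_Te at D120, and efhb, with a difference of 2.69 and 109, 116 and 106 FPKM in WT_Fe_Ov, against 273, 290.0 and 289 FPKM in WT_Ma_Te at D120.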

How the results depend on the processing

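With a threshold of 2 on the absolute log2 fold change, 2612 genes were called higher, 4654 were shared with D120 and 5410 were called in the difference between stages, and with library totals 2602 were called higher. The other counts stayed within 1.5 times under every alternative run, among them DESeq2, which called 5886 genes higher and 8147 lower. Leaving out each library in turn gave 5508 to 5552 genes higher and 8425 to 9005 lower, 7981 to 8270 shared with D120 and 9619 to 10139 in the difference. Of 203 genes that the naming rules picked or that were added to them, 137 kept call and sign under every alternative. With library totals 22 lost their call and 13 gained one, and fdx1 (-0.27), hsd17b3 (-0.77), cbr1 (-0.59) and eef1a (-0.37) turned negative, since that scale moves all log2 fold changes down. The threshold of 2 removed 48 calls. Among the genes reported here, leaving out 1 library changed calls of wnt4, fst, cpb1 and ppara. The call of cpb1 was gained without replicate 2 of WT_Fe_Ov (-1.05), and that of ppara was lost without replicate 1 of WT_Ma_Te (0.97). No pairing by replicate number was detected, as deviations of same-numbered ovary and testis libraries correlated at 0.0145, 0.0336 and 0.00408. Those of libraries with unlike numbers correlated at -0.0319 to 0.0217. A shared collection or preparation was not tested. With the replicate block, 5574 genes were higher and 8645 lower, 8006 were shared and 9895 differed, and no call of these 203 genes changed. Depth limits genes near 3 counts per library.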
